A study of Mus musculus with 24 samples.

Results

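The transcripts described here are those of 9 Polycomb genes, Ezh1, Ezh2, Eed, Suz12, Bmi1, Cbx2, Cbx6, Cbx7 and Cbx8, whose rows were taken by gene symbol from a table of 25229 genes, and all 9, Cbx7 through the drug groups alone, passed the filter on low counts that left 12941 genes to test. They were followed in ID8 mouse ovarian cancer cells whose p53 gene is knocked out (ID8 Trp53−/−, "P53 KO" in the labels). Cells were grown for 6 days with the vehicle DMSO, with 2.5 µM AU-15330, with 750 nM cisplatin, or with both drugs at those doses, and each of these 4 treatments had 6 replicates, 24 libraries in all. AU-15330 is a PROTAC, a molecule that sends the SWI/SNF ATPases SMARCA4 and SMARCA2 to the proteasome, and cisplatin is a platinum drug that crosslinks DNA and was used here as a trigger of senescence. All 4 groups carried the p53 deletion, no p53 wild-type library was analysed, and the labels name a single cell line, so the values describe that line. The cisplatin dose is that of the labels, and the published methods give another for these cells.

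Polycomb proteins keep genes silent as parts of 2 kinds of complex. Polycomb repressive complex 2 (PRC2) methylates lysine 27 of histone H3, and its core holds a methyltransferase, EZH2 in dividing cells or the less active EZH1, together with EED, which binds the finished mark, and SUZ12, the scaffold. Canonical PRC1 brings a CBX protein, which reads that mark, together with a PCGF protein such as BMI1 and a RING1 ubiquitin ligase that modifies histone H2A. SWI/SNF remodellers evict Polycomb complexes from chromatin, and the 2 systems have opposed each other genetically since their discovery in flies. In senescence biology, BMI1, EZH2 and several CBX proteins are known for holding the Cdkn2a (Ink4a/Arf) locus silent.

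Library totals ran from 17592588 to 25260009 counts, so that the floor taken for detection, 3 counts, stood at 0.1199 to 0.186 CPM. This floor and all statements on depth cover counting error only. CPM values are counts scaled to a common library total, with TMM adjustment, and are not divided by gene length. The 8 epithelial and mesothelial markers checked against the cell label were all measured, and their summed level was 3514 to 5312 CPM with DMSO, 4190 to 4866 CPM with cisplatin, 1018 to 1150 CPM with AU-15330 and 1223 to 1404 CPM with the combination. Leukocyte markers, of which Cd68 alone passed the low-count filter, summed to 6.46 to 53.0 CPM over all libraries, with a median of 10.8 CPM with DMSO and 35.3 CPM with AU-15330, and with Ncr1 at 0 in every library. Endothelial markers summed to 0.313 to 12.7 CPM. Their medians were 3.75 CPM with DMSO, 0.539 CPM with AU-15330, 10.2 CPM with cisplatin and 1.05 CPM with the combination. Fibroblast markers summed to 227 to 641 CPM with DMSO, 111 to 173 CPM with AU-15330, 365 to 449 CPM with cisplatin and 194 to 292 CPM with the combination. With AU-15330, Col1a1 of this list was lower (-2.38 log2) and the other tested markers, Dcn and Pdgfra, were higher (0.90 log2 each). The part of these markers in the results was not tested. Between AU-15330 and DMSO, Smarca4 mRNA differed by 0.66 ± 0.0554 log2 (SE) and Smarca2 mRNA by -0.63 ± 0.0842 log2, and since the drug acts on the proteins, neither checks the labels. In bulk RNA, fewer cells of a type and less RNA per cell cannot be told apart.

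AU-15330 alone split the Polycomb genes. Bmi1, Cbx6, Cbx8 and Suz12 rose, Cbx2 fell to 0.317 of its DMSO level, and Eed and Ezh1 fell by much smaller amounts. Of the 9 genes, 8 passed the test in edgeR's quasi-likelihood fit of all 24 libraries at a Benjamini-Hochberg adjusted p under 0.05, 5 higher and 3 lower. Among all tested genes 73.4% were called in this comparison, 36.2% higher and 37.2% lower, so the number of Polycomb genes called is near the background, and their values rather than their count are described. The median log2 fold change was 0.44 over the 9 genes and -0.00 over all genes tested. Groups of 6 libraries did not overlap for 7 of the 9 genes, against 49.9% of all genes. Cbx7 is among the 5 higher genes, in the median and among these 7. It passed the filter through the drug groups and was not tested in a fit of both groups alone. A change of at least 1 on the log2 scale was called for Bmi1, Cbx2 and Cbx6, 3 of the 9 genes, against 29.5% of all genes. Nothing in the labels says that the 6 replicates were separate cultures, so p-values measure only the spread between these samples.

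**Figure D1:**
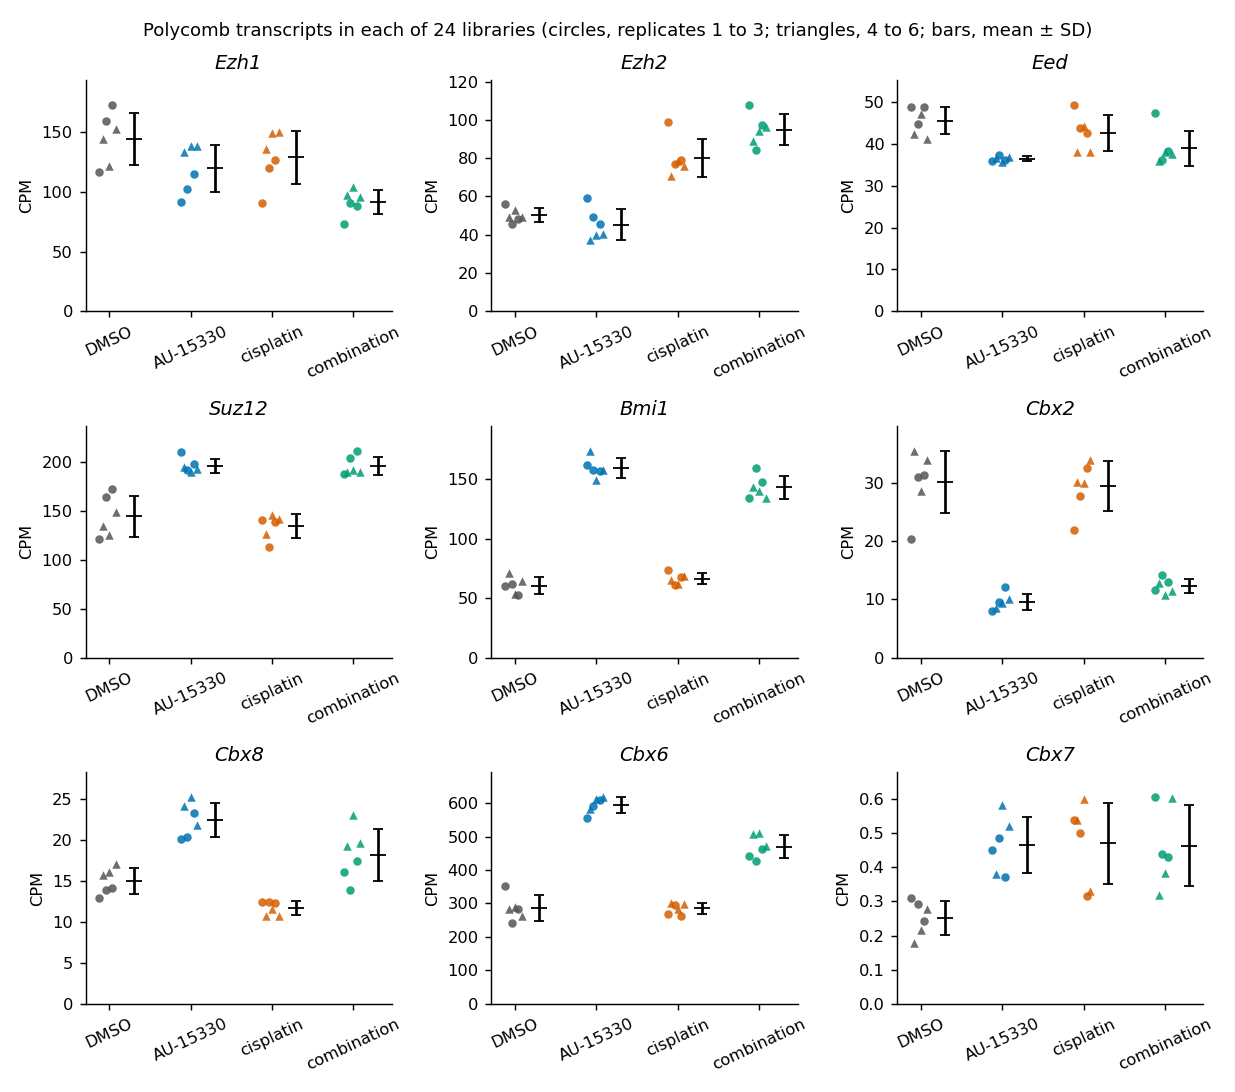
Level of each of the 9 Polycomb transcripts in CPM (y axis, from 0) in every library of the 4 treatments (x axis), with circles for replicates 1 to 3, triangles for replicates 4 to 6, and bars for mean ± SD of 6 libraries. The AU-15330 and combination libraries lie above the other libraries for Bmi1, Cbx6 and Suz12 and below them for Cbx2, whereas Ezh2 is highest in the libraries with cisplatin.

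Among the PRC2 core genes, the methyltransferase gene Ezh2 (chr6:47530139-47595341, mm10, minus strand) followed cisplatin. Its lowest, median and highest library stood at 45.8, 49.3 and 56.04 CPM with DMSO, and at 70.5, 77.8 and 99.1 CPM with cisplatin. With the combination the 3 values were 84.3, 95.1 and 108 CPM. No cisplatin or combination library overlapped the DMSO group. The log2 fold change was 0.67 ± 0.0958 (SE, adjusted p = 2.04e-06, edgeR) for cisplatin against DMSO, and 0.92 ± 0.0961 (adjusted p = 3.44e-09, edgeR) for the combination against DMSO.

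Adding AU-15330 to cisplatin took Ezh2 a little higher, by 0.24 ± 0.0947 log2 (adjusted p = 0.0253, edgeR, groups overlapping). Without the filter on low counts this change did not pass (adjusted p = 0.0768), nor did it in replicates 1 to 3 alone (adjusted p = 0.381). AU-15330 alone gave 37.4, 43.1 and 59.4 CPM, which overlapped DMSO, and a log2 fold change of -0.15 ± 0.0962 that did not pass the test (adjusted p = 0.170, edgeR). Without replicate 1 it was -0.22 and passed (adjusted p = 0.00750, edgeR). The libraries differed between sets of replicate numbers, which the labels do not call a batch. With AU-15330, replicates 1 to 3 held 45.6 to 59.4 CPM and replicates 4 to 6 held 37.4 to 40.6 CPM. The difference from DMSO was 0.04 log2 in a fit of replicates 1 to 3 (adjusted p = 0.816, edgeR) and -0.38 log2 in a fit of replicates 4 to 6 (adjusted p = 0.000217, edgeR).
The difference between the effects of AU-15330 with and without cisplatin, the interaction of the drugs, was 0.39 ± 0.135 log2 for Ezh2 (adjusted p = 0.0269, edgeR). It was 0.11 in replicates 1 to 3 alone, where it did not pass (adjusted p = 0.774), and it did not pass either under scaling to total counts (adjusted p = 0.0805).

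Ezh1 (chr11:101191115-101226463, minus strand), the other PRC2 methyltransferase gene, was lowest with the combination, where Ezh2 was highest. Its lowest, median and highest library were at 117, 148 and 173 CPM with DMSO, at 92.0, 124 and 138 CPM with AU-15330, at 91.1, 131 and 151 CPM with cisplatin, and at 73.6, 93.6 and 104 CPM with the combination. Every combination library was below every DMSO library. The combination differed from DMSO by -0.66 ± 0.123 log2 (adjusted p = 3.24e-05, edgeR) and from cisplatin alone by -0.49 ± 0.122 log2 (adjusted p = 0.000912, edgeR), the latter with overlapping groups. For AU-15330 alone the difference of -0.27 ± 0.122 log2 was at the threshold (adjusted p = 0.0494, edgeR), and under scaling to total counts it was -0.14 and did not pass (adjusted p = 0.285). For cisplatin alone it was -0.16 ± 0.122 log2 (adjusted p = 0.270, edgeR).
In each of the 3 drug groups every library of replicates 1 to 3 lay below every library of replicates 4 to 6 for Ezh1, at 92.0 to 115 against 134 to 138 CPM with AU-15330, at 91.1 to 127 against 136 to 151 CPM with cisplatin, and at 73.6 to 91.2 against 96.0 to 104 CPM with the combination. DMSO libraries did not separate in this way. The difference of mean log2 CPM between AU-15330 and DMSO was accordingly -0.52 within replicates 1 to 3 and -0.02 within replicates 4 to 6, and between cisplatin and DMSO it was -0.41 and 0.07. Between the combination and DMSO it was -0.81 and -0.49.

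The ratio of the catalytic pair is given as a description, with no test. Per kilobase of exon, Ezh2 stood to Ezh1 as 0.398 ± 0.0917 (SD, n = 6) with DMSO, 0.442 ± 0.161 with AU-15330, 0.724 ± 0.247 with cisplatin and 1.17 ± 0.241 with the combination. All 6 combination libraries had more Ezh2 than Ezh1 on this scale, with ratios of 1.01 to 1.63, and no DMSO or AU-15330 library did. The AU-15330 and DMSO ratios overlapped. The highest cisplatin library, at 1.21, overlapped the combination.

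Eed (chr7:89954654-89980983, minus strand), whose protein binds trimethylated lysine 27, fell with AU-15330. The lowest, median and highest library were at 41.2, 45.9 and 48.7 CPM with DMSO, 35.7, 36.3 and 37.2 CPM with AU-15330, 38.0, 43.1 and 49.3 CPM with cisplatin, and 35.9, 37.8 and 47.2 CPM with the combination. The AU-15330 libraries were nearly level with one another, with an SD of 0.598 CPM, and all lay below all DMSO libraries, a difference of -0.32 ± 0.0727 log2 (adjusted p = 0.000324, edgeR). The combination was lower than DMSO by a similar amount, -0.23 ± 0.0725 log2 (adjusted p = 0.00719, edgeR), but under scaling to total counts this was -0.09 and did not pass (adjusted p = 0.313). Against cisplatin alone the combination gave -0.13 ± 0.0724 log2 (adjusted p = 0.106, edgeR). It passed in DESeq2's test of all libraries, with -0.16 (adjusted p = 0.0495). Without replicate 1, whose combination library was the highest of its group, that difference was -0.19 and passed (adjusted p = 0.0119, edgeR).

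Suz12 (chr11:79993106-80034123, plus strand), the scaffold of PRC2, rose with AU-15330 whether or not cisplatin was present. It held 121, 142 and 173 CPM in the lowest, median and highest DMSO library and 190.5, 194 and 210.3 CPM with AU-15330. With cisplatin it held 113, 140.0 and 146 CPM, and with the combination 188, 191 and 212 CPM. The libraries with AU-15330 lay apart from those without it. The difference was 0.44 ± 0.0780 log2 for AU-15330 against DMSO (adjusted p = 1.49e-05, edgeR) and 0.54 ± 0.0781 log2 for the combination against cisplatin (adjusted p = 8.57e-07, edgeR), and the interaction, 0.10 ± 0.110 log2, did not pass (adjusted p = 0.503, edgeR). Per kilobase, the ratio of Suz12 to Eed went from 2.48 ± 0.397 (SD, n = 6) with DMSO to 4.19 ± 0.194 with AU-15330, and from 2.46 ± 0.311 with cisplatin to 3.95 ± 0.462 with the combination.

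Promoter windows of RefSeq (GRCm38.p6), which run from 250 bases before to 50 bases after an annotated start, were found for 8 of the 9 genes and not for Cbx2. They were searched on both strands for 5 short words, E2F (TTTCCCGC, TTTGGCGC, TTTCGCGC or TTTGCCGC), AP-1 (TGACTCA or TGAGTCA), CREB (TGACGTCA), the E-box CACGTG and CCAAT. An E2F word, carried by 2.26% of 32851 windows of the mouse genome, was present in Ezh2 and Suz12 among the 8. The Ezh2 window (chr6:47594981-47595280, minus strand) and the Suz12 window (chr11:79992856-79993155, plus strand) are shown because each holds an E2F word and yet their genes followed different drugs. The words differ, TTTGGCGC in Ezh2 and TTTCCCGC in Suz12. The word is in capitals and the sequence runs 5′ to 3′ along the gene.
Ezh2: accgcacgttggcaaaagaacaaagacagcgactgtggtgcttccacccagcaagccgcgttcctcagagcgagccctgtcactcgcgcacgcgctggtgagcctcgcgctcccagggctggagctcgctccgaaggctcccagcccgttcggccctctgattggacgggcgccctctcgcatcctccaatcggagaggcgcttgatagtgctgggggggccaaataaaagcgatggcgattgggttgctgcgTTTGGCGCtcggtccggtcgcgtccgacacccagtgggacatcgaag
Suz12: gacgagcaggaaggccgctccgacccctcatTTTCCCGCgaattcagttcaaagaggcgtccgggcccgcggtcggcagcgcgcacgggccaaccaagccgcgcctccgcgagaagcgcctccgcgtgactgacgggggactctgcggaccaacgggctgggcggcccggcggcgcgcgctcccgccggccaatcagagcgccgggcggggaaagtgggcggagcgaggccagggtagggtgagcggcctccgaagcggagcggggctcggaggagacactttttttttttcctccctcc
The Ezh2 word lies at bases 4 to 11 counted from the annotated start and that of Suz12 at -219 to -212. Among all tested genes with a window, 32.6% of the 479 that hold an E2F word were called higher with cisplatin, against 25.2% of the 9786 without. With AU-15330 against DMSO the shares were 41.3% and 36.1%, with the combination against cisplatin 44.9% and 36.0%, and with the combination against AU-15330 35.3% and 21.6%. The share was higher with the word in all 4 of these comparisons. The windows of the 8 genes hold 17 to 41 CpG and 54.7% to 71.7% GC, against medians of 7 CpG and 52.7% GC over all windows, and the E2F and E-box words hold a CpG, so the share over all windows is taken over unlike sequence. A matching word describes the letters and does not show that a factor binds there. No AP-1 word was found in any of the 8 windows, against 5.2% of all windows, and CCAAT was in Ezh2, Eed, Suz12, Cbx7 and Cbx8, against 37.4% of all windows.

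**Figure D2:**
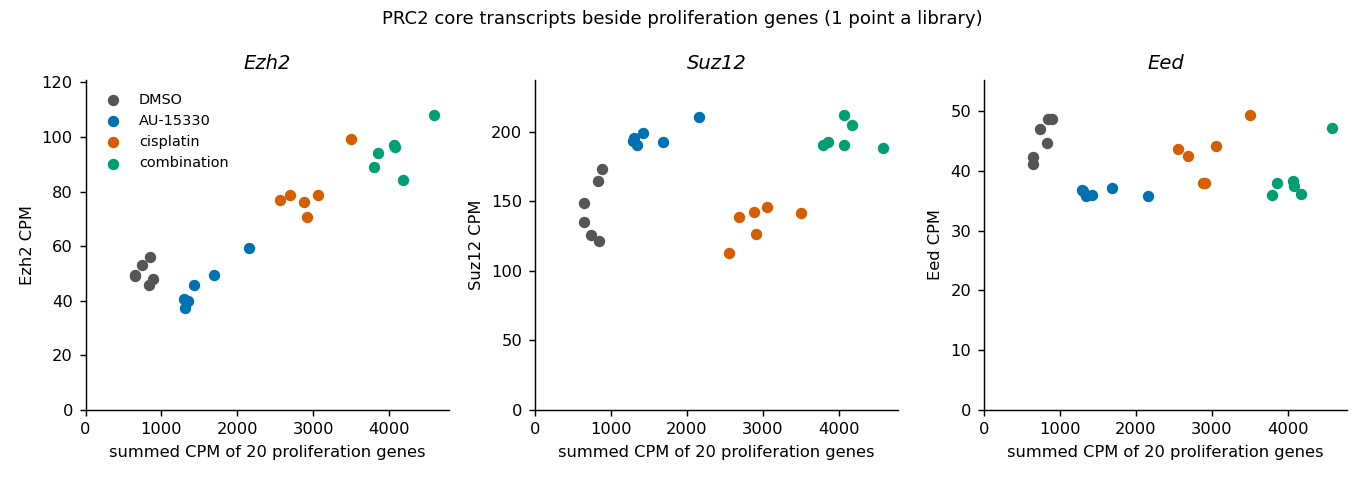
Level of Ezh2, Suz12 and Eed in CPM (y axes, from 0) against the summed CPM of 20 proliferation genes (x axis), with 1 point for each of 24 libraries coloured by treatment. Ezh2 is highest where the sum is highest, with cisplatin and the combination, whereas Suz12 is high in both AU-15330 groups at sums of 1298 to 4589 CPM.

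Ezh2 is a known gene of dividing cells, so a list of 20 proliferation genes was set beside it. The summed level of the list was 654 to 892 CPM with DMSO, 1298 to 2158 CPM with AU-15330, 2561 to 3499 CPM with cisplatin and 3792 to 4589 CPM with the combination. All 20 genes of the list were called higher with cisplatin than with DMSO, against 26% of all tested genes. With AU-15330, 19 were called higher, against 36.2% of all tested genes. With cisplatin both Ezh2 and the list rose, and with AU-15330 alone the list rose while the mean of Ezh2 was 45.3 CPM against 50.3 CPM with DMSO. Within the AU-15330 group, replicate 1 had both the highest sum, 2158 CPM, and the highest Ezh2. The part of proliferation in the Ezh2 values was not tested.

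In PRC1, Bmi1 (chr2:18677018-18686629, plus strand), which encodes the PCGF4 subunit and silences Ink4a/Arf, showed the largest rise of the 9 genes under AU-15330. The lowest, median and highest library were at 52.2, 61.0 and 70.8 CPM with DMSO and at 149, 158 and 174 CPM with AU-15330. With cisplatin they were at 61.2, 66.4 and 73.8 CPM, and with the combination at 134, 142 and 159 CPM. No library with AU-15330 came near one without it. Bmi1 differed by 1.40 ± 0.0711 log2 between AU-15330 and DMSO (adjusted p = 1.67e-15, edgeR) and by 1.11 ± 0.0705 log2 between the combination and cisplatin (adjusted p = 2.28e-13, edgeR). The rise was smaller in the presence of cisplatin, with an interaction of -0.29 ± 0.0988 log2 (adjusted p = 0.0256, edgeR). Cisplatin alone gave 0.13 ± 0.0703 log2 (adjusted p = 0.115, edgeR), which under scaling to total counts became 0.21 and passed (adjusted p = 0.0188).

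Of the CBX genes, Cbx2 (chr11:119022962-119031270, plus strand), whose protein compacts chromatin, was the one that fell with AU-15330. Its lowest, median and highest library were at 20.3, 31.2 and 35.5 CPM with DMSO, 7.92, 9.42 and 12.05 CPM with AU-15330, 21.8, 30.0 and 34.0 CPM with cisplatin, and 10.8, 12.1 and 14.2 CPM with the combination. The highest library with AU-15330 or the combination stood below the lowest library without AU-15330. The log2 fold change was -1.66 ± 0.125 for AU-15330 against DMSO (adjusted p = 5.78e-12, edgeR) and -1.26 ± 0.122 for the combination against cisplatin (adjusted p = 1.02e-09, edgeR). Cisplatin alone gave -0.04 ± 0.118 (adjusted p = 0.814, edgeR). The difference between the falls, an interaction of 0.39 ± 0.173, did not pass (adjusted p = 0.0794, edgeR), and without replicate 1 it was 0.36 and passed (adjusted p = 0.0360, edgeR).

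Cbx8 (chr11:119036305-119040969, minus strand) lies 5034 bp from Cbx2 on the other strand and moved the other way. It was at 12.9, 14.97 and 17.1 CPM in the lowest, median and highest DMSO library, 20.2, 22.6 and 25.3 CPM with AU-15330, 10.7, 11.9 and 12.5 CPM with cisplatin, and 13.9, 18.4 and 23.1 CPM with the combination. AU-15330 libraries were all above and cisplatin libraries all below the DMSO libraries. The differences were 0.58 ± 0.0998 log2 (adjusted p = 9.66e-06, edgeR) for AU-15330 and -0.36 ± 0.101 log2 (adjusted p = 0.00439, edgeR) for cisplatin, and the combination was 0.64 ± 0.101 log2 above cisplatin alone (adjusted p = 3.64e-06, edgeR). The fall with cisplatin was -0.14 log2 within replicates 1 to 3 and -0.56 within replicates 4 to 6. In a fit of replicates 1 to 3 alone it was -0.15 and did not pass (adjusted p = 0.386, edgeR). With the combination, replicates 1 to 3 held 13.9 to 17.4 CPM and replicates 4 to 6 held 19.3 to 23.1 CPM. Between these neighbouring genes, the ratio of Cbx8 to Cbx2 per kilobase was 0.589 ± 0.0899 (SD, n = 6) with DMSO, 2.77 ± 0.408 with AU-15330, 0.474 ± 0.104 with cisplatin and 1.76 ± 0.452 with the combination.

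Cbx6 (chr15:79823896-79834688, minus strand), another reader of the PRC2 mark, rose with AU-15330. The lowest, median and highest library held 241, 284 and 354 CPM with DMSO and 557, 600.0 and 618 CPM with AU-15330. They held 262, 290 and 301 CPM with cisplatin and 426, 468 and 510 CPM with the combination. AU-15330 set the libraries apart from those without it in both settings. The log2 fold change was 1.06 ± 0.0734 for AU-15330 against DMSO (adjusted p = 1.07e-12, edgeR) and 0.72 ± 0.0729 for the combination against cisplatin (adjusted p = 2.21e-09, edgeR), with an interaction of -0.34 ± 0.103 (adjusted p = 0.0133, edgeR). DMSO and cisplatin differed by -0.00 ± 0.0727 log2 (adjusted p = 0.977, edgeR).

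Cbx7 (chr15:79915807-79971119, minus strand), which represses Ink4a/Arf in many cell types, was close to the limit of detection. It had 4 to 6 counts in the DMSO libraries, 8 to 12 with AU-15330, 7 to 15 with cisplatin and 7 to 14 with the combination, or 0.253, 0.465, 0.470 and 0.464 CPM on average. DMSO libraries all had fewer counts than the libraries of the other groups. Against DMSO the log2 fold changes were 0.87 ± 0.257 with AU-15330 (adjusted p = 0.00774, edgeR) and 0.89 ± 0.254 with cisplatin (adjusted p = 0.00778, edgeR). They rest on a few reads per library. In fits of DMSO with a single drug group Cbx7 did not pass the low-count filter and was not tested, so it entered the fit of all libraries through the groups where it is higher, and its calls support nothing further. In fits of replicates 1 to 3 neither drug passed (adjusted p = 0.202 and 0.219). In addition, exons of Cbx7 overlap those of Apobec3 on the other strand, and Apobec3 had 1633 to 3853 counts per library and 82.3 to 157 CPM. By group, Apobec3 held 82.3 to 102 CPM with DMSO, 92.7 to 116 CPM with AU-15330, 140 to 157 CPM with cisplatin and 112 to 126 CPM with the combination. Whether strand was used in counting was not given in the sources used here, so reads of Apobec3 cannot be told apart from reads of Cbx7. Exons of Ezh2, Eed and Suz12 also share bases with other annotated genes, of which E230029C05Rik at Eed had at most 2 counts in any library. Exons of Cbx6 share bases with Npcd on the same strand, where counting by strand would not separate them, and Npcd had 0 counts in every library.

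**Figure D3:**
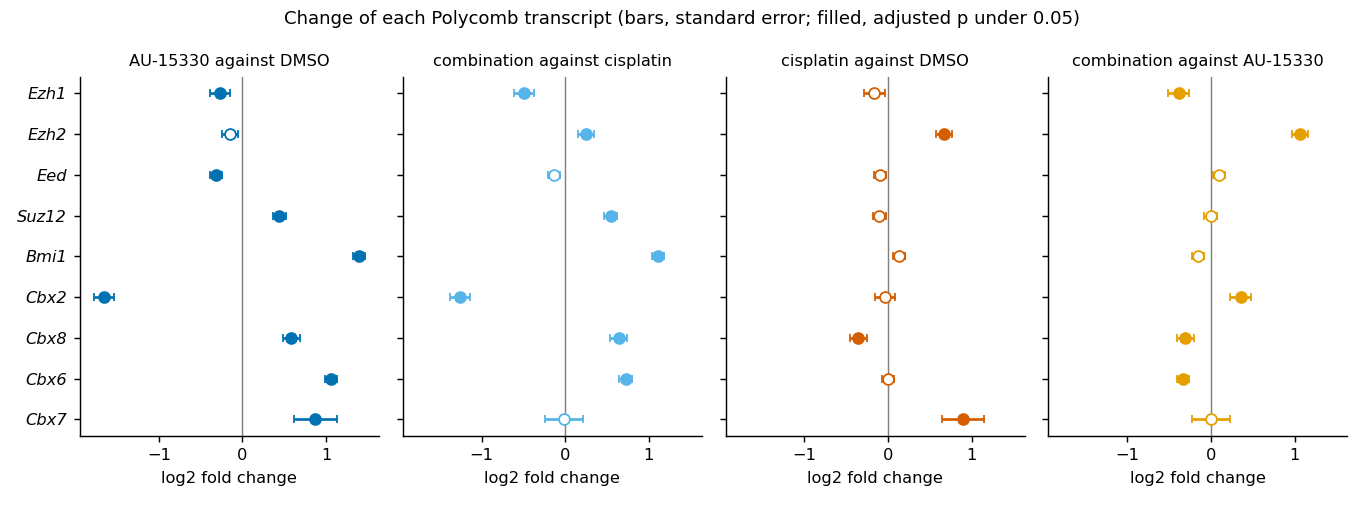
Log2 fold change of each of the 9 Polycomb transcripts (x axes) in 4 comparisons (panels), with bars for the standard error and filled points for an adjusted p under 0.05 in edgeR's quasi-likelihood test. Bmi1, Cbx6, Cbx8 and Suz12 are right of 0 and Cbx2 is left of 0 in both comparisons that add AU-15330, and Ezh2 is right of 0 in both that add cisplatin.

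The E-box word CACGTG was in the windows of 3 of the genes that rose with AU-15330, Bmi1 (chr2:18676768-18677067, plus strand), Cbx6 (chr15:79834284-79834583, minus strand) and Cbx8 (chr11:119040864-119041163, minus strand), and in 7.15% of all windows. These windows are shown because these 3 genes rose together and share the word, printed in capitals.
Bmi1: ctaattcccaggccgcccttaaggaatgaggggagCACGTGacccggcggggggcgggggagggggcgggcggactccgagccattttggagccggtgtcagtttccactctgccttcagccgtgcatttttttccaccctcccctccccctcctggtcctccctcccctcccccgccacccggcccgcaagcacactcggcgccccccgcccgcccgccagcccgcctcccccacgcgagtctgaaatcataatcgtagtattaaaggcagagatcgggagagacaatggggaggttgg
Cbx6: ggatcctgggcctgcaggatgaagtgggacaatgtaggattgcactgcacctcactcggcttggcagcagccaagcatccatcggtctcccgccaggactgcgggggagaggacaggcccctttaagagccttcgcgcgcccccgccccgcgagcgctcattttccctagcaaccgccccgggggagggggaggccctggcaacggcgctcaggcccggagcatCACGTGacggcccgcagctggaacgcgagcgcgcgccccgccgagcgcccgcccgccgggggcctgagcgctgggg
Cbx8: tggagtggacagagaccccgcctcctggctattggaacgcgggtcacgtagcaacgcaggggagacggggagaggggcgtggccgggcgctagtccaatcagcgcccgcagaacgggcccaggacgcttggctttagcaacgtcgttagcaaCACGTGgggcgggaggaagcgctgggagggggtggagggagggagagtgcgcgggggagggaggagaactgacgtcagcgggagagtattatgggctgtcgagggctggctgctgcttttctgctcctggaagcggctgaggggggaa
The word lies at -215 to -210 from the annotated start in Bmi1, at -26 to -21 in Cbx6 and at -98 to -93 in Cbx8. The Cbx8 window also holds the CREB word, as do 1.79% of all windows. Of the 1190 tested genes with the E-box word, 41.1% were called higher with AU-15330 and the median log2 fold change was 0.09. Of the 9075 genes without it, 35.8% were called higher. The genes and words were picked with the changes known, so the match is a description.

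Together the transcripts of the 4 CBX genes changed in makeup, given as shares of their summed CPM per kilobase. Cbx2 made up 18.7 ± 3.88% of the sum (SD, n = 6) with DMSO, 3.47 ± 0.418% with AU-15330, 18.6 ± 2.25% with cisplatin and 5.55 ± 0.873% with the combination. For Cbx6 the shares were 70.4 ± 5.06%, 86.9 ± 0.725%, 72.6 ± 1.98% and 84.9 ± 0.337% in the same order. The Cbx6 share was at least 84.4% in every library with AU-15330 and at most 80.0% in any library without it. Cbx8 held 8.64% to 10.8% on average in each treatment, and Cbx7 at most 0.196%.

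**Figure D4:**
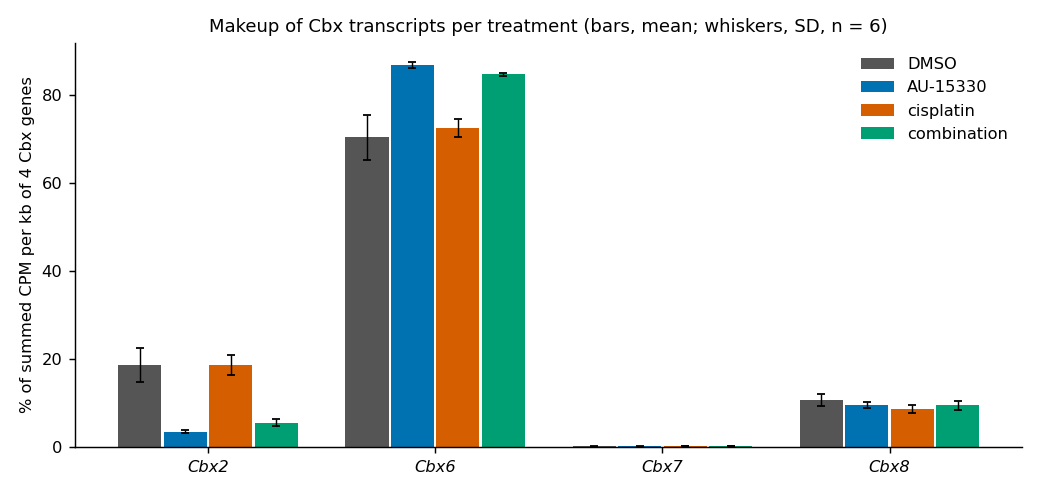
Share of each of 4 Cbx genes in their summed CPM per kilobase (y axis, percent, from 0) for the 4 treatments, with bars for the mean and whiskers for the SD of 6 libraries. The Cbx2 bars are lower and the Cbx6 bars higher in both groups with AU-15330, and the Cbx7 bars are near 0.

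Levels of different genes were compared per kilobase of exon. With DMSO the order was Suz12 (29.3 CPM per kilobase), Cbx6 (27.0), Ezh1 (19.4), Bmi1 (15.2), Eed (11.9), Ezh2 (7.53), Cbx2 (7.07), Cbx8 (4.08) and Cbx7 (0.0390). Ranges over libraries overlapped between Suz12 and Cbx6, Cbx6 and Ezh1, Ezh1 and Bmi1, and Ezh2 and Cbx2, although within libraries Cbx6 was above Ezh1 and Ezh1 above Bmi1 in 6 of 6. With the combination the order was Cbx6 (44.3), Suz12 (39.7), Bmi1 (36.0), Ezh2 (14.2), Ezh1 (12.3), Eed (10.2), Cbx8 (4.96), Cbx2 (2.88) and Cbx7 (0.0715). Here ranges overlapped between Cbx6 and Suz12, Suz12 and Bmi1, Ezh2 and Ezh1, and Ezh1 and Eed, and not between Cbx8 and Cbx2.

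With cisplatin alone, Ezh2 rose and Cbx8 fell, as described above. The test was passed by 3 of the 9 genes, Ezh2 and Cbx7 higher and Cbx8 lower, of which Cbx7 was not tested in a fit of both groups alone, while 51.7% of all tested genes were called, 26% higher and 25.7% lower. The same 3 genes were those whose DMSO and cisplatin libraries did not overlap, against 24% of all genes. No Polycomb gene had a called change of 1 or more on the log2 scale, against 13.4% of all genes. The median log2 fold change of the 9 genes was -0.04, and that of all genes was -0.00.

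When AU-15330 was added to cisplatin, 7 of the 9 genes were called, 5 higher (Bmi1, Cbx6, Cbx8, Suz12 and Ezh2) and 2 lower (Cbx2 and Ezh1), against 68.1% of all genes, 35.4% higher and 32.7% lower. In 5 of them the groups did not overlap, against 50.2% of all genes, and Bmi1 and Cbx2 changed by at least 1 on the log2 scale, against 23.7%. The median was 0.24 over the 9 genes and 0.04 over all genes. The comparisons with AU-15330 alone and with the combination share no libraries when the former is set against DMSO and the latter against cisplatin, and Bmi1, Cbx6, Cbx8 and Suz12 rose and Cbx2 fell in both. Ezh1 was called lower in both too, but for AU-15330 alone its call was lost under total counts, in the fit of both groups alone (adjusted p = 0.0594) and in replicates 4 to 6 (-0.04, adjusted p = 0.647).

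Where cisplatin was added to AU-15330, 5 of the 9 genes were called, against 41.7% of all genes, with 22.2% higher and 19.5% lower. Ezh2 rose by 1.06 ± 0.0963 log2 (adjusted p = 3.30e-09, edgeR) and Cbx2 by 0.36 ± 0.126 log2 (adjusted p = 0.0248, edgeR). The other called genes fell, Ezh1 with -0.39 ± 0.122 log2 (adjusted p = 0.0127, edgeR), Cbx6 with -0.34 ± 0.0726 log2 (adjusted p = 0.000522, edgeR) and Cbx8 with -0.31 ± 0.0988 log2 (adjusted p = 0.0148, edgeR). Groups did not overlap for Ezh2 and Cbx6, 2 of the 9 genes, against 29.6% of all genes, and only Ezh2 changed by at least 1 on the log2 scale, against 7.67%. Suz12 stood at 197 and 196 CPM on average in the groups with AU-15330 alone and with both drugs, and Bmi1 at 159 and 143 CPM, differences that did not pass (adjusted p = 0.985 and 0.0757, edgeR). Without the low-count filter Cbx2 did not pass (adjusted p = 0.0518), and in replicates 1 to 3 alone neither Cbx2 nor Ezh1 did (adjusted p = 0.252 and 0.180). Bmi1 passed in 5 of the alternatives, namely DESeq2's test, DESeq2's size factors, no low-count filter, the fit of both groups alone and replicates 4 to 6, with adjusted p from 0.0191 to 0.0441.

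With both drugs against DMSO all 9 genes were called, 6 higher and 3 lower, against 73.3% of all genes, 36.8% higher and 36.5% lower, and 7 of the 9 did not overlap, against 49.5% of all genes. Bmi1 and Cbx2 changed by at least 1 on the log2 scale, 2 of the 9 genes, against 29.4% of all genes. Cbx7 is among the 6 higher genes and the 7 that did not overlap, and it was not tested in a fit of both groups alone. This comparison shares its libraries with the ones above. Cbx8 was at 0.28 ± 0.1001 log2 (adjusted p = 0.0148, edgeR), and without replicate 1 it was 0.22 and did not pass (adjusted p = 0.0634, edgeR). The interaction was called for 3 of the 9 genes, Ezh2 upward and Cbx6 and Bmi1 downward, against 33.7% of all genes, 17.9% upward and 15.8% downward. In replicates 1 to 3 alone none of the 3 passed (adjusted p = 0.774, 0.223 and 0.141), although only Ezh2 was smaller there, at 0.11, and Cbx6 and Bmi1 were at -0.34 and -0.35. In addition, in replicates 4 to 6 alone Bmi1 was -0.28 and did not pass (adjusted p = 0.0850).

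The other genes of the Polycomb system were taken from lists, and some were called in each direction. Of 8 further PRC2 genes, all tested, 2 were higher, 4 lower and 2 not called with AU-15330, with a median log2 fold change of -0.13, against 73.4% of all genes called. With cisplatin 3 were higher and 2 lower, against 51.7% of all genes called. Phf19, a Polycomb-like factor that recruits PRC2, had the largest changes of the list with AU-15330 and with cisplatin, each against DMSO. Its mean was 3.38 CPM with DMSO, 1.92 CPM with AU-15330, 13.002 CPM with cisplatin and 7.59 CPM with the combination, and its log2 fold change was 1.95 ± 0.152 with cisplatin (adjusted p = 6.67e-11, edgeR) and -0.81 ± 0.168 with AU-15330 (adjusted p = 0.000132, edgeR). Phf19 thus rose with cisplatin as Ezh2 did, but fell when AU-15330 was added, by -0.78 ± 0.142 log2 (adjusted p = 3.03e-05, edgeR), where Ezh2 rose. Jarid2, which guides PRC2 to its sites, was lower by -0.55 ± 0.0877 log2 with AU-15330 (adjusted p = 3.38e-06, edgeR) and by -0.87 ± 0.0881 with the combination against cisplatin (adjusted p = 2.02e-09, edgeR).

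Of 22 further PRC1 genes, 21 were tested, and 8 were higher, 6 lower and 7 not called with AU-15330, against 73.4% of all genes called. With cisplatin 2 were higher, 6 lower and 13 not called, against 51.7% of all genes called. Bcorl1, a subunit of a variant PRC1, had the largest change with AU-15330, 1.54 ± 0.179 log2 (adjusted p = 2.11e-08, edgeR). Pcgf5 was higher by 0.72 ± 0.0840 log2 (adjusted p = 2.08e-08, edgeR), whereas Pcgf6 was lower, with -0.87 ± 0.0778 log2 (adjusted p = 1.88e-10, edgeR). The other PCGF genes of the list, which like these are related to Bmi1, were not called with AU-15330. With cisplatin, Pcgf6 was lower too, with -0.47 ± 0.0769 log2 (adjusted p = 1.54e-05, edgeR). When AU-15330 was added to cisplatin, 9 were higher and 4 lower, against 68.1% of all genes called, among them Pcgf5 with 0.95 and Rnf2, a RING1 ubiquitin ligase, with 0.88 ± 0.0735 log2 (adjusted p = 5.58e-11, edgeR).

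Enzymes that take the marks off, or assist in it, were listed as 6 genes, of which 5 were tested. With AU-15330, 1 was higher, 2 were lower and 2 were not called. Kdm6b, which removes the PRC2 mark, was lower with AU-15330, with -0.89 ± 0.172 log2 (adjusted p = 4.91e-05, edgeR), and with cisplatin, with -0.56 ± 0.171 log2 (adjusted p = 0.00780, edgeR). Asxl1, a partner of the deubiquitinase BAP1, was higher with AU-15330, by 0.47 ± 0.0996 log2 (adjusted p = 0.000161, edgeR), whereas Bap1 itself was lower, with -0.33 ± 0.0611 log2 (adjusted p = 3.05e-05, edgeR). Of 24 SWI/SNF genes, 22 were tested, and 7 were higher, 9 lower and 6 not called with AU-15330, again against 73.4% of all genes called.

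**Figure D5:**
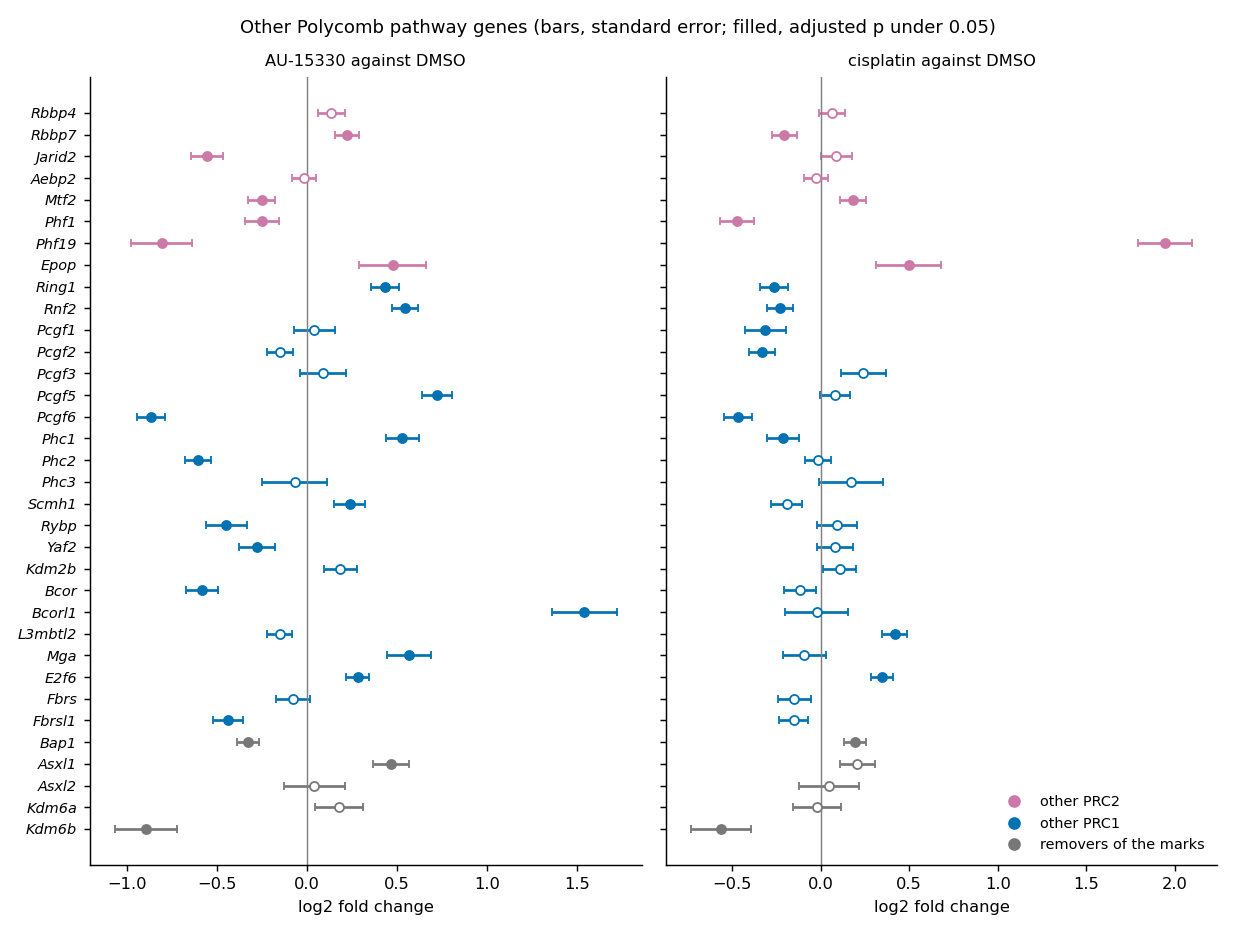
Log2 fold change (x axes) of further tested genes of the Polycomb system, coloured by list, for AU-15330 against DMSO and cisplatin against DMSO (panels), with bars for the standard error and filled points for an adjusted p under 0.05 in edgeR's test. Points lie on both sides of 0 in both panels, with Bcorl1 farthest right for AU-15330 and Phf19 farthest right for cisplatin.

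A list of 47 developmental and cell cycle genes known as Polycomb targets in other cells was mostly without counts or close to the floor. In 32 of them the low-count filter was not passed, with at most 5 counts in any library, and 14 had 0 counts in every library, among them Cdkn2a and Cdkn2b, where 3 counts, or up to 0.186 CPM, could still have been missed. The Ink4a/Arf locus that Bmi1, Ezh2 and Cbx7 are known to repress was thus not detected under any treatment. Why it was not detected was not tested. Of the 15 that were tested, 5 were higher and 7 lower with AU-15330, 3 higher and 6 lower with cisplatin, and 3 higher and 8 lower when AU-15330 was added to cisplatin, against 73.4%, 51.7% and 68.1% of all genes called. Tbx2, a repressor of the T-box family, was higher by 2.81 ± 0.139 log2 with AU-15330 (adjusted p = 9.37e-16, edgeR). Foxa2 and Foxf2, transcription factors of endoderm and mesenchyme, were lower, with -3.05 ± 0.105 and -2.03 ± 0.153 log2 (adjusted p = 6.84e-19 and 5.85e-12, edgeR). Lhx1 had 0.969 to 2.54 CPM with DMSO and 0 to 0.123 CPM with AU-15330, the latter at the floor.

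The genes whose pattern over the 24 libraries was nearest to each Polycomb gene were found by the root mean square difference of centred log2 CPM, over genes that share the libraries and treatments. For Bmi1 they were Nfe2l2 (0.115), Trim37 (0.121) and Zfp51 (0.129), against an SD of Bmi1 itself of 0.655 over the libraries. Those of Ezh2 were Nop56 (0.150), Umps (0.155) and Nasp (0.166), and those of Cbx2 were Rab11fip5 (0.168), Golim4 (0.169) and Myo1d (0.173). Cbx6 was nearest to Mpg (0.0971), Mypop (0.107) and Pld3 (0.111), and Cbx8 to Wdr41 (0.121), Tmem164 (0.141) and Tada1 (0.143). Suz12 was nearest to Tollip (0.0933), Eaf1 (0.0958) and Ints7 (0.101), Ezh1 to Fbxl20 (0.115), Tep1 (0.135) and Tmem94 (0.139), and Eed to Eif2b5 (0.0774), Cct4 (0.0779) and Dld (0.0836). For Cbx7, with its few counts, the nearest were Ggact (0.254), Armc7 (0.257) and Erich1 (0.259). No Polycomb gene had another of the 9 among its 3 nearest. The closest pairs among the 9 were Suz12 and Cbx8 (0.260), Cbx6 and Bmi1 (0.261) and Cbx6 and Cbx8 (0.261), practically tied. Cbx2 and Bmi1 were far apart (1.38).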

How the data were processed

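The 24 libraries, 6 for each of 4 treatments of ID8 Trp53−/− cells, were poly(A)-selected and made with a directional kit per the labels. The authors aligned reads with STAR 2.7.1a to mm10, per the submitters' processing notes, which also list DESeq2 1.36.0, and deposited raw read counts per gene symbol. The counting tool, its strand setting and the annotation were not given in the sources used here. The 48 columns were 2 lanes of each library and were summed. Between lanes the chi-square statistic was 1.36 to 1.46 for each degree of freedom, and between replicates 2.26 to 116. Totals ran from 17592588 to 25260009 counts.

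The summed counts were scaled by TMM factors, filtered with filterByExpr and fitted in edgeR 4.0.16 (R 4.3.3) with a mean for each treatment over all 24 libraries. Tests were quasi-likelihood F tests with 20 residual degrees of freedom, and Benjamini-Hochberg adjustment over the 12941 genes tested, with a threshold of 0.05. The standard error of a log2 fold change was taken as its size divided by the square root of F. Log2 CPM used a prior count of 2. The fit was tested on simulated data with known changes. The alternatives were DESeq2 1.42.0, its size factors or total counts in edgeR, no low-count filter, the replicate number as a block, fits of the compared groups, and fits without replicate 1, of replicates 1 to 3 or of replicates 4 to 6. Gene positions and exon lengths are those of GENCODE M21 (mm10), which may differ from the annotation used for counting, and promoter windows those of RefSeq GRCm38.p6.

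The 9 genes and all gene lists were chosen with earlier results of these data known. Named are all 9 genes, at most 4 of the largest called changes of each list in a comparison, and the 3 genes nearest to each of the 9. Cdkn2a and Cdkn2b, untested, and Lhx1, given by its levels, were named besides, as were Smarca4 and Smarca2. Ncr1 was named as a marker without counts, and Apobec3, E230029C05Rik and Npcd for exonic bases shared with a Polycomb gene. A gene of the PRC1 list is not reported here and was left out of its counts.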

Additional observations from a re-analysis of the deposited data

Results flagged for a closer look

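In 2 of 36 groups of 6 values, 1 library stood far from the others by Dixon's criterion, and chance gives about 1 in 20 groups, here 1.8. For Ezh2 with cisplatin, replicate 1 stood at 99.1 CPM, with the next library at 78.9 and the lowest at 70.5, so that its gap took 0.707 of the range. For Eed with the combination, replicate 1 stood at 47.2 CPM, with the next at 38.4 and the lowest at 35.9, a gap of 0.782 of the range. The effect of AU-15330 differed with and without cisplatin, as an interaction in edgeR, for Ezh2 by 0.39 log2 (adjusted p = 0.0269), for Cbx6 by -0.34 log2 (adjusted p = 0.0133) and for Bmi1 by -0.29 log2 (adjusted p = 0.0256). No cause of these results was tested.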

How the results depend on the processing

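Of the results recomputed for single genes, 409 kept their direction and their side of the threshold, 24 no longer passed, 15 passed newly and 25 changed direction. None of the latter was called in either fit. Replicates 1 to 3 alone called 1 of the genes for cisplatin against DMSO, 3 for the combination against AU-15330 and 0 for the interaction, where the full fit called 3, 5 and 3 and replicates 4 to 6 alone called 3, 6 and 3. Of all genes the fits of replicates 1 to 3 called 33.5%, 21.7% and 13.1%, the full fit 51.7%, 41.7% and 33.7%, and replicates 4 to 6 alone 52.9%, 42.0% and 37.0%. Scaling to total counts moved the median of all genes by 0.13 log2 for AU-15330 and 0.14 for the combination, both against DMSO.

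The labels do not say that a replicate number marks a shared culture or day, and not every same-numbered pair had a correlation of deviations over 0.1 (23 of 36, lowest -0.133), so the numbers were not taken as pairs. The mean correlation was 0.145 for same numbers and -0.0269 for different numbers, and 10 of 24 libraries were closest to their own number. With the replicate number as a block, 9, 3, 8, 5 and 9 genes were called in the comparisons of AU-15330 and cisplatin with DMSO and of the combination with cisplatin, AU-15330 and DMSO, and 4 for the interaction. Of all genes the block called 77.0%, 56.8%, 71.8%, 47.8% and 76.4%, and 41.0% for the interaction, each a larger share than the full fit. Fits of the compared groups alone left Cbx7 untested except for the combination against cisplatin. The block added Ezh2 for AU-15330 (-0.16, adjusted p = 0.0339), Eed for the combination against cisplatin (-0.13) and Cbx2 for the interaction (0.40).

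Direction changed as follows, in log2. For cisplatin against DMSO, Cbx6 was 0.00995 with DESeq2, 0.00971 with its size factors, 0.0715 with total counts, 0.0669 without replicate 1 and 0.0662 in replicates 4 to 6. Cbx2 was 0.0317 with total counts, and Ezh1 0.0502 and Suz12 0.00407 in replicates 4 to 6. For AU-15330 against DMSO, Ezh2 was 0.0411 in replicates 1 to 3. Against cisplatin, the combination gave Cbx7 0.0440 with total counts and 0.0945 in replicates 1 to 3. Against AU-15330 it gave Cbx7 -0.0105 with DESeq2, -0.0112 with its size factors, -0.0337 without the filter, -0.00151 with the block, -0.133 without replicate 1 and -0.214 in replicates 4 to 6. It gave Suz12 0.00735 with total counts and 0.000536 in the fit of both groups alone, and Eed -0.0103 without replicate 1 and -0.00320 in replicates 4 to 6. The interaction was -0.00679 for Cbx8 with total counts and -0.316 in replicates 1 to 3, 0.0931 for Ezh1 in replicates 1 to 3 and -0.0512 for Suz12 in replicates 4 to 6. The cause was not tested. Depth limited Cbx7 most among the 9 genes, with 4 to 15 counts per library.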
